A study of Mus musculus with 14 samples.

Results

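The comparison described here asks which genes changed when Prox1 was deleted together with Apc in the second series of a mouse intestinal organoid study. Organoids are small epithelial structures grown from crypts in a gel, and RNA was hybridised to Illumina bead arrays. The members were chosen by their titles: series 2 entries, replicates 1 and 3, giving 2 Apc-Prox1-deleted and 2 Apc-deleted libraries, 4 of the 14 entries deposited. Replicate 2 of both genotypes was left out because, after quantile normalization, nearly the same values also stand under series 1 titles. The 14 entries were thus taken to hold 12 different arrays.

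The Apc-Prox1-deleted organoids carried villin-CreER with homozygous floxed Apc and homozygous floxed Prox1. The Apc-deleted organoids carried villin-CreER with homozygous floxed Apc alone, so both genotypes had lost Apc and neither was a wild type. The villin promoter drives the Cre in intestinal epithelium, and tamoxifen for 2 days switched it on. From 2 days after deletion, culture for 5 days without R-Spondin1, which boosts Wnt signalling, kept the Apc-mutant organoids. RNA was taken 7 days after tamoxifen was added, and all were of strain C57Bl aged 2 to 3 months. Whether the replicates are separate animals or cultures is not stated in the labels. The p-values therefore reflect only how much these samples vary, which could be technical variation.

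Apc is part of the complex that marks beta-catenin for destruction. Without it, beta-catenin accumulates and, with TCF and LEF factors, switches on Wnt target genes that keep crypt cells dividing. Prox1 is a homeodomain transcription factor that in the intestine is found in enteroendocrine cells and is switched on in Wnt-driven tumours. Paneth cells, the secretory cells at the crypt base, fill their granules with alpha-defensins, small antimicrobial peptides encoded by a cluster of near-identical genes.

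Values are log2 levels with a floor close to the array median of 6.73, so that a difference of 1 is 2-fold and differences of dim genes are understated. A level is that of 1 probe and is not set against other probes. The number of arrays limits the precision: 2 against 2 libraries cannot give a two-sided exact permutation p below 0.333, and tests come from a limma fit over 22897 probes with adjusted p-values. The 4 libraries correlated at 0.97 to 0.99 across probes, and the first principal component, with 68.3% of the variance, separated the genotypes. Epithelial markers were bright in all 4 libraries: Krt8, a keratin of simple epithelia, stood at 12.64 and 12.70 in Apc-Prox1-deleted organoids and at 12.41 and 12.38 in Apc-deleted organoids. The fibroblast markers Col1a2, Dcn, Pdgfra and Thy1 lay between 6.65 and 6.87 in all 4 libraries. Vim, also on that list, stood at 11.56 and 10.33 in Apc-deleted organoids and is described below. The pan-leukocyte marker Ptprc lay between 6.66 and 6.80. In bulk RNA, fewer cells of a type and less RNA per cell cannot be told apart.

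The most marked difference was a set of probes that were bright in Apc-Prox1-deleted organoids and at the floor in Apc-deleted organoids, led by the alpha-defensin Defa31. The promoters of 3 alpha-defensin genes on chromosome 8 are printed because 2 of these genes, Defa31 and AY761185, were detected in 1 genotype alone, while Defa20 was bright in both. The sequences are RefSeq's for build GRCm38.p6, from 250 bases before the transcription start to 50 after it, read 5′ to 3′ on the gene's strand. Capitals mark the TATA box letters TATAAA and TCAAAG, the other strand's reading of CTTTGA, the core of TCF and LEF binding sites. Defa31 lies at chr8:21191323-21191622 on the plus strand, AY761185 at chr8:20944699-20944998 on the minus strand and Defa20 at chr8:21509008-21509307 on the plus strand.
Defa31: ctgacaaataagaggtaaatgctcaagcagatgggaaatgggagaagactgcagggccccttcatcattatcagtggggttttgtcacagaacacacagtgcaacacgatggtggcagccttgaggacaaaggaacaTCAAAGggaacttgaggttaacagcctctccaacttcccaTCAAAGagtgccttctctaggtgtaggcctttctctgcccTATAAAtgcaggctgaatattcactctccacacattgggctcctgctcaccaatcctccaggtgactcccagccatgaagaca
AY761185: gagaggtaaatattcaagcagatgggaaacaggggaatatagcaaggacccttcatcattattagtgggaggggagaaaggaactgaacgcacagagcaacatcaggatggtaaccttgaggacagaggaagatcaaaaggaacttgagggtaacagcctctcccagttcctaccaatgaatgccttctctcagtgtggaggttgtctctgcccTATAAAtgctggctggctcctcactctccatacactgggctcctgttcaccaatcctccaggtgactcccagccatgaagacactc
Defa20: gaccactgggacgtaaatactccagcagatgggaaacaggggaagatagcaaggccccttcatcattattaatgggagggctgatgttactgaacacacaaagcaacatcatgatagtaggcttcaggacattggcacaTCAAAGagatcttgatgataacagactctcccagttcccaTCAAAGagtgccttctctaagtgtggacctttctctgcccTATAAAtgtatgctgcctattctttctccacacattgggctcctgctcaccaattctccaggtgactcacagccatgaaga

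All 3 windows held TATAAA, starting at positions -33, -36 and -31 from the start site in the order printed. The Defa31 window held TCAAAG at -113 and -73, and the Defa20 window held it at -111 and -71. The AY761185 window held neither CTTTGA nor TCAAAG. Over 32851 RefSeq promoter windows of the same length and both strands, 13.6% held the TATA letters and 16% held CTTTGA or TCAAAG. The motifs do not overlap each other. Across their 300 bases the Defa31 and AY761185 windows were 81.3% identical, and the Defa31 and Defa20 windows 82.3%. The window of Defa23 was identical to that of Defa31 at 100%, and Defa21 matched Defa20 at 97.7%. A matched letter string describes the window and shows no binding.

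Defa31 was read by 2 probes. The first had levels of 14.30 and 13.93 in Apc-Prox1-deleted organoids, against 6.64 and 6.73 in Apc-deleted organoids. The second had 14.20 and 14.15 in Apc-Prox1-deleted organoids, against 6.63 and 6.56 in Apc-deleted organoids. Both probes were thus far above the floor in both Apc-Prox1-deleted libraries and at it in both Apc-deleted libraries. The log2 differences were 7.43 (SE 0.187, limma adjusted p = 6.47e-08) and 7.58 (SE 0.167, limma adjusted p = 4.31e-08). AY761185, an alpha-defensin gene of the same cluster, had 10.21 and 10.05 in Apc-Prox1-deleted organoids, against 6.56 and 6.58 in Apc-deleted organoids, a difference of 3.56 (SE 0.146, limma adjusted p = 2.27e-06). Since the Apc-deleted values are floor values, these differences understate the change.

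By a description with no test, a probe was called on when both libraries of a genotype lay at least 1 log2 above the array median, and off when both lay at or below it. On in Apc-Prox1-deleted organoids alone were 10 probes, 0.0437% of those tested, and on in Apc-deleted organoids alone was 1 probe, 0.00437%. Of the 10, 2 read Defa31, 1 read AY761185 and 7 have no gene symbol in the annotation used. The 7 lay between 7.76 and 13.22 in Apc-Prox1-deleted organoids, against 6.52 to 6.71 in Apc-deleted organoids. The brightest of them, ILMN_2524846, had 13.11 and 13.22 in Apc-Prox1-deleted organoids, against 6.57 and 6.64 in Apc-deleted organoids. ILMN_2710914 had 13.01 and 13.07 in Apc-Prox1-deleted organoids, against 6.71 and 6.62 in Apc-deleted organoids. Which genes these probes read was not analysed here.

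The other alpha-defensin probes did not share this pattern. Defa20 had 14.42 and 14.51 on its brightest probe in Apc-Prox1-deleted organoids, against 14.25 and 14.53 in Apc-deleted organoids (difference 0.07, limma adjusted p = 0.813), and the groups overlap. A dimmer Defa20 probe disagreed: it fell to 7.59 and 7.51 in Apc-Prox1-deleted organoids, against 9.42 and 8.72 in Apc-deleted organoids (difference -1.52, limma adjusted p = 0.00855). Defa23, whose promoter window equals that of Defa31, had 7.50 and 7.29 in Apc-Prox1-deleted organoids, against 7.17 and 7.14 in Apc-deleted organoids (limma adjusted p = 0.347). Defa26 fell, with 11.79 and 11.64 in Apc-Prox1-deleted organoids against 12.89 and 12.53 in Apc-deleted organoids (difference -0.99, SE 0.156, limma adjusted p = 0.0134). The brightest Defa3 probe had 13.91 and 13.88 in Apc-Prox1-deleted organoids, against 14.03 and 13.90 in Apc-deleted organoids, and did not pass. Probes of near-identical genes can share transcripts, so the member of the family that each probe reads is uncertain.

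Other Paneth cell products gave no common direction. Of 12 Paneth markers tested, 1 rose (Defa31), 2 fell (Defa26 and Pla2g2a) and 9 did not pass. Of all genes tested 0.943% rose and 1.62% fell. The median difference of the markers was -0.07, against 0.005 over all genes. Lyz1, the Paneth lysozyme, had 13.81 and 14.05 in Apc-Prox1-deleted organoids, against 14.35 and 14.05 in Apc-deleted organoids. Ang4, an antimicrobial ribonuclease, had 12.40 and 12.18 in Apc-Prox1-deleted organoids, against 12.73 and 12.27 in Apc-deleted organoids. These levels were bright in every library and overlapped or touched between genotypes. Pla2g2a, a secreted antibacterial phospholipase, had 9.12 and 9.59 in Apc-Prox1-deleted organoids, against 11.28 and 10.68 in Apc-deleted organoids (difference -1.62, SE 0.242, limma adjusted p = 0.0104). In the limma fit of 10 libraries Pla2g2a did not pass (adjusted p = 0.0565), and without Apc-Prox1-deleted replicate 1 its adjusted p was 0.346.

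The 1 probe on in Apc-deleted organoids alone read Sema7a, a membrane-anchored semaphorin. Sema7a had 6.58 and 6.68 in Apc-Prox1-deleted organoids, against 8.79 and 8.86 in Apc-deleted organoids (difference -2.19, SE 0.122, limma adjusted p = 2.73e-05). With the off level set 0.25 above the array median, 13 probes were on in Apc-deleted organoids alone, while the number on in Apc-Prox1-deleted organoids alone stayed at 10. The 13 read Sema7a, Scn2b on 2 probes, Notum on 2 probes, Cd177, Rdh9, Wfdc15b, 2510009E07Rik, Xpnpep2, the dimmer Prox1 probe and 2 probes without a symbol. Scn2b, a beta subunit of voltage-gated sodium channels that also stands in the stem cell list, had 6.66 and 6.84 in Apc-Prox1-deleted organoids, against 8.85 and 8.95 in Apc-deleted organoids. Cd177, a GPI-anchored surface protein known from neutrophils, had 6.95 and 6.96 in Apc-Prox1-deleted organoids, against 9.40 and 8.68 in Apc-deleted organoids. That the genotypes lay apart for all 13 probes follows from the rule that picked them.

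**Figure D1:**
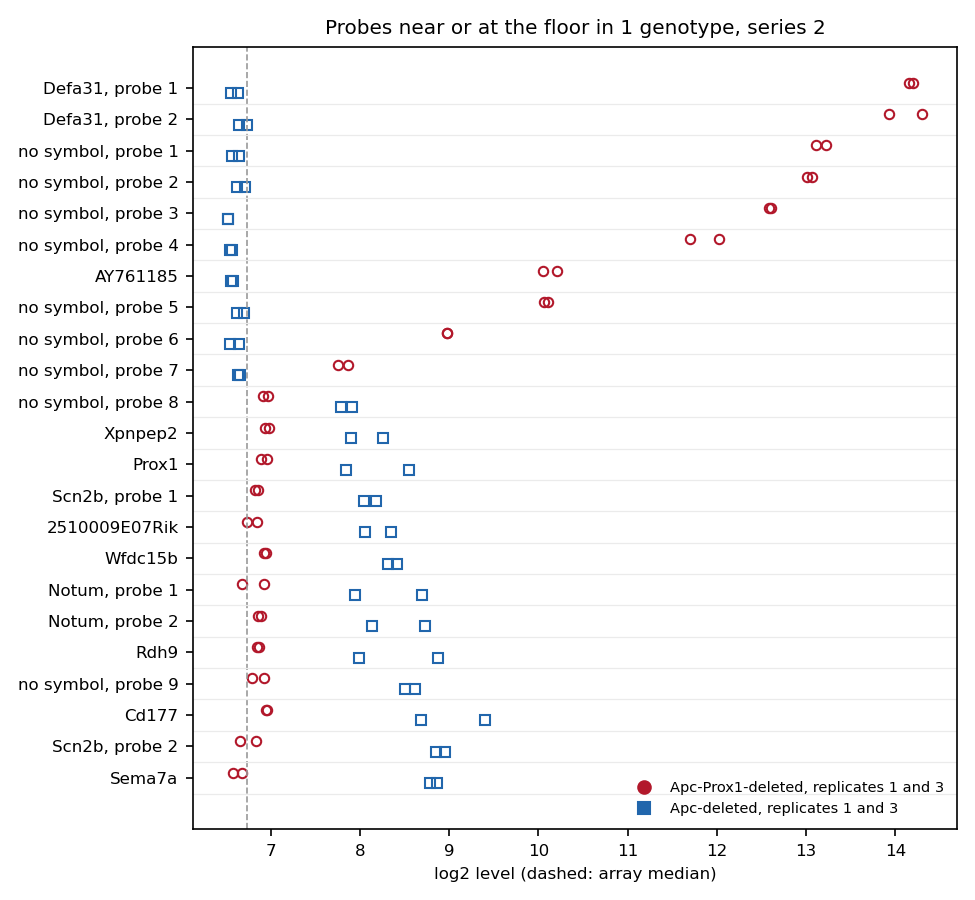
Log2 level of each probe at or near the floor in 1 genotype, for Apc-Prox1-deleted (red circles) and Apc-deleted (blue squares) libraries, replicates 1 and 3. The 10 upper probes stand between 7.76 and 14.30 in Apc-Prox1-deleted organoids with the Apc-deleted libraries at or below the array median of 6.73, and the 13 lower probes show the opposite order.

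Prox1 itself, the gene deleted between the genotypes, checked the labels. Its dimmer probe fell to 6.89 and 6.96 in Apc-Prox1-deleted organoids, against 8.55 and 7.84 in Apc-deleted organoids (difference -1.27, SE 0.199, limma adjusted p = 0.0131). In the limma fit of 10 libraries this probe passed (adjusted p = 0.00483), but not without Apc-deleted replicate 1 (0.0965) or without Apc-Prox1-deleted replicate 1 (0.0662). Its brighter probe had 8.20 and 9.03 in Apc-Prox1-deleted organoids, against 10.39 and 9.54 in Apc-deleted organoids, a difference of -1.35 (SE 0.318) that missed the threshold at a limma adjusted p of 0.0674. Prox1 was lower in both Apc-Prox1-deleted libraries on both probes, and the brighter probe kept levels well above the floor there. Where these probes lie relative to the deleted part of the gene is not known here. Apc, deleted in both genotypes, had 7.22 and 7.27 in Apc-Prox1-deleted organoids, against 7.08 and 7.17 in Apc-deleted organoids (difference 0.12, limma adjusted p = 0.637).

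Across the array 482 of 22897 probes passed, 2.11%, with 181 higher (0.79%) and 301 lower (1.31%) in Apc-Prox1-deleted organoids. At least 2-fold changes were found for 161 of them (0.703%), 63 higher (0.275%) and 98 lower (0.428%). Genotypes lay apart in all 482, as they did in 42.4% of all probes tested. Read through the brightest probe of each gene, 318 of 12402 genes passed (2.56%), 117 higher (0.943%) and 201 lower (1.62%). The median difference over all probes was 0.005. The call count depends on the spread estimate: it was 47 with no variance trend and 832 with a robust prior. Any 3 of the 4 libraries fitted alone leave 1 library in a group and 1 residual degree of freedom. In a limma fit of 4 groups over 10 libraries, 457 of the 482 probes passed again. That fit takes the series 2 difference from the same 4 libraries and adds series 1 only to the spread, so it is no second test. A probe at the floor in series 1 lowers that spread. The same limits hold wherever the fit of 10 libraries is used, also with 1 library left out.

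**Figure D2:**
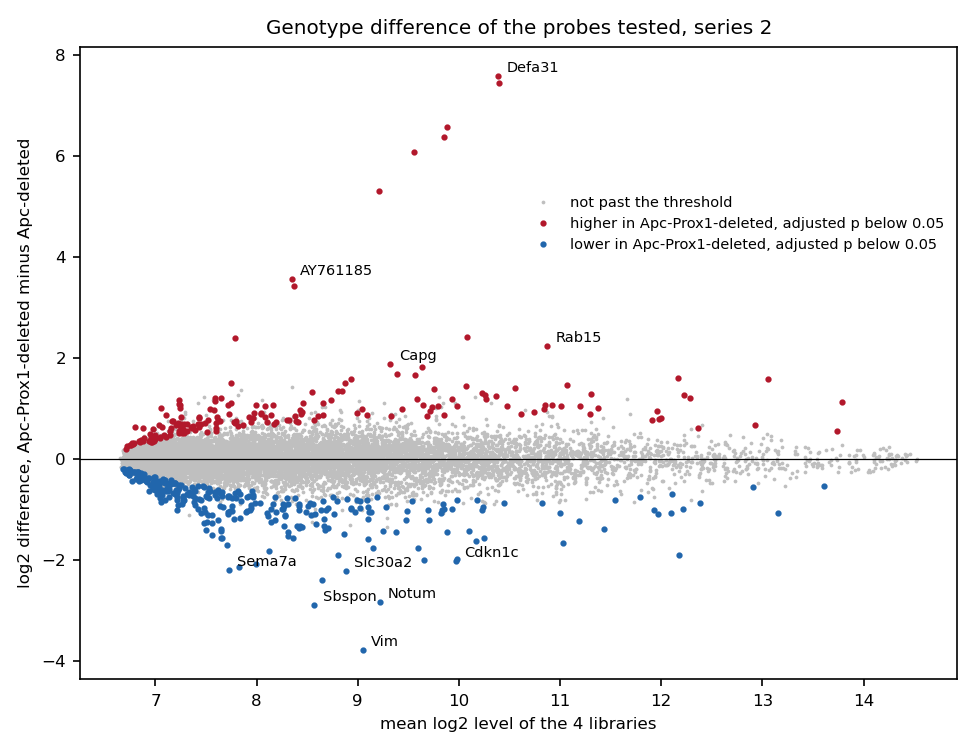
Log2 difference, Apc-Prox1-deleted minus Apc-deleted, against the mean log2 level of the 4 libraries for 22897 probes, with the 181 higher probes in red and the 301 lower probes in blue. The Defa31 probes stand highest, Vim lies lowest, and many called probes near the floor differ by less than 2-fold.

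The largest fall was that of Vim, the intermediate filament protein vimentin, typical of mesenchymal cells. Vim had 6.98 and 7.33 in Apc-Prox1-deleted organoids, against 11.56 and 10.33 in Apc-deleted organoids, a difference of -3.79 (SE 0.334, limma adjusted p = 7.93e-04). Of 11 fibroblast markers on the array 5 were tested and 1 fell (Vim), where 1.62% of all genes tested fell. The other 4 were at the floor in all 4 libraries, where a fall could not be seen. Which cells the Vim RNA came from was not tested. The mean level over the 5 was 6.83 to 6.86 in Apc-Prox1-deleted organoids and 7.48 to 7.72 in Apc-deleted organoids. Sbspon, a secreted protein with a thrombospondin repeat, had 6.99 and 7.26 in Apc-Prox1-deleted organoids, against 10.30 and 9.73 in Apc-deleted organoids (difference -2.89, SE 0.207, limma adjusted p = 1.94e-04). Slc30a2, a zinc transporter, had 7.51 and 8.04 in Apc-Prox1-deleted organoids, against 10.40 and 9.58 in Apc-deleted organoids (difference -2.21, limma adjusted p = 0.00448). For all 3 genes the Apc-Prox1-deleted libraries lay at least 1.5 log2 below the nearer Apc-deleted library. Slc30a2 did not pass in the limma fit of 10 libraries less Apc-Prox1-deleted replicate 1 (adjusted p = 0.0634) or less Apc-deleted replicate 1 (adjusted p = 0.0591).

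Cdkn1c, the cyclin-dependent kinase inhibitor p57, had 9.19 and 8.73 in Apc-Prox1-deleted organoids, against 10.88 and 11.09 in Apc-deleted organoids (difference -2.02, SE 0.204, limma adjusted p = 0.00183). It was the 1 gene that passed of 31 cell cycle genes tested, whose median difference was 0.03, where 2.56% of all genes tested passed. Espn, which bundles actin in microvilli, had 8.47 and 8.96 in Apc-Prox1-deleted organoids, against 10.71 and 10.23 in Apc-deleted organoids (difference -1.75, SE 0.229, limma adjusted p = 0.00619). Rab3d, a small GTPase of secretory granules, had 9.28 and 9.49 in Apc-Prox1-deleted organoids, against 10.88 and 10.76 in Apc-deleted organoids (difference -1.44, SE 0.176, limma adjusted p = 0.00448). The remaining genes among the 20 largest falls were Bcas1, Msx1, Bex4, Dmpk, Rpl22, Rdh9, Sectm1b, Wfdc15b, Notum, Nkd1, Scn2b, Cd177, Sema7a and Pla2g2a, with differences between -2.84 and -1.42. The dimmer Bex4 probes differed from each other, at 0.01 and -1.46, and of the 2 Dmpk probes the dimmer stood at the floor. In the limma fit of 10 libraries, 15 of the 20 passed without each series 2 library in turn. The other 5 were Slc30a2, Pla2g2a, Bex4 (adjusted p = 0.139 without Apc-deleted replicate 1), Msx1 (0.142 without the same library) and Rdh9 (0.0589 without it).

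Among the rises below the defensins, Rab15, a small GTPase of endosomes, had 12.46 and 11.51 in Apc-Prox1-deleted organoids, against 9.68 and 9.83 in Apc-deleted organoids (difference 2.23, SE 0.272, limma adjusted p = 0.00448). Capg, which caps actin filaments, had 10.90 and 9.62 in Apc-Prox1-deleted organoids, against 8.52 and 8.25 in Apc-deleted organoids (difference 1.88, SE 0.342, limma adjusted p = 0.0258). A dimmer Capg probe lay near the floor in every library. Mpp1, a membrane scaffold protein, differed by 1.67, with 10.57 and 9.87 in Apc-Prox1-deleted organoids against 8.47 and 8.63 in Apc-deleted organoids. All 3 genes were higher in Apc-Prox1-deleted replicate 1 than in replicate 3, and both replicates lay above the Apc-deleted libraries.

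St3gal6, a sialyltransferase, had 10.79 and 10.01 in Apc-Prox1-deleted organoids, against 8.78 and 8.70 in Apc-deleted organoids (difference 1.66, limma adjusted p = 0.0102). Gcnt3, which branches mucin-type chains, had 9.64 and 9.38 in Apc-Prox1-deleted organoids, against 8.19 and 8.15 in Apc-deleted organoids (difference 1.34, limma adjusted p = 0.00451). B3gnt3, an N-acetylglucosaminyltransferase, had 9.15 and 9.26 in Apc-Prox1-deleted organoids, against 7.81 and 7.95 in Apc-deleted organoids (difference 1.32, limma adjusted p = 0.00418). St3gal6, Gcnt3 and B3gnt3 were picked out after their values were seen, and no list of enzymes that build glycan chains was counted. B3galt6, another such enzyme, also picked out afterwards, fell by 0.56 (limma adjusted p = 0.0406). Ceacam1, a cell adhesion molecule, differed by 1.5, and so did Plekhs1, a protein with a pleckstrin homology domain. The remaining genes among the 20 largest rises were Gsta1, Emp1, Car13, Crip2, Tm4sf4, Ms4a10, Cldn2, Wdfy1, Anxa3 and Cxcl16, between 1.19 and 1.82. Of the 20, 17 passed without each series 2 library in turn in the limma fit of 10 libraries. The other 3 were Emp1 (adjusted p = 0.0639 without Apc-Prox1-deleted replicate 1), Tm4sf4 (0.066 without Apc-Prox1-deleted replicate 3) and Cxcl16 (0.0981 without Apc-Prox1-deleted replicate 1).

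**Figure D3:**
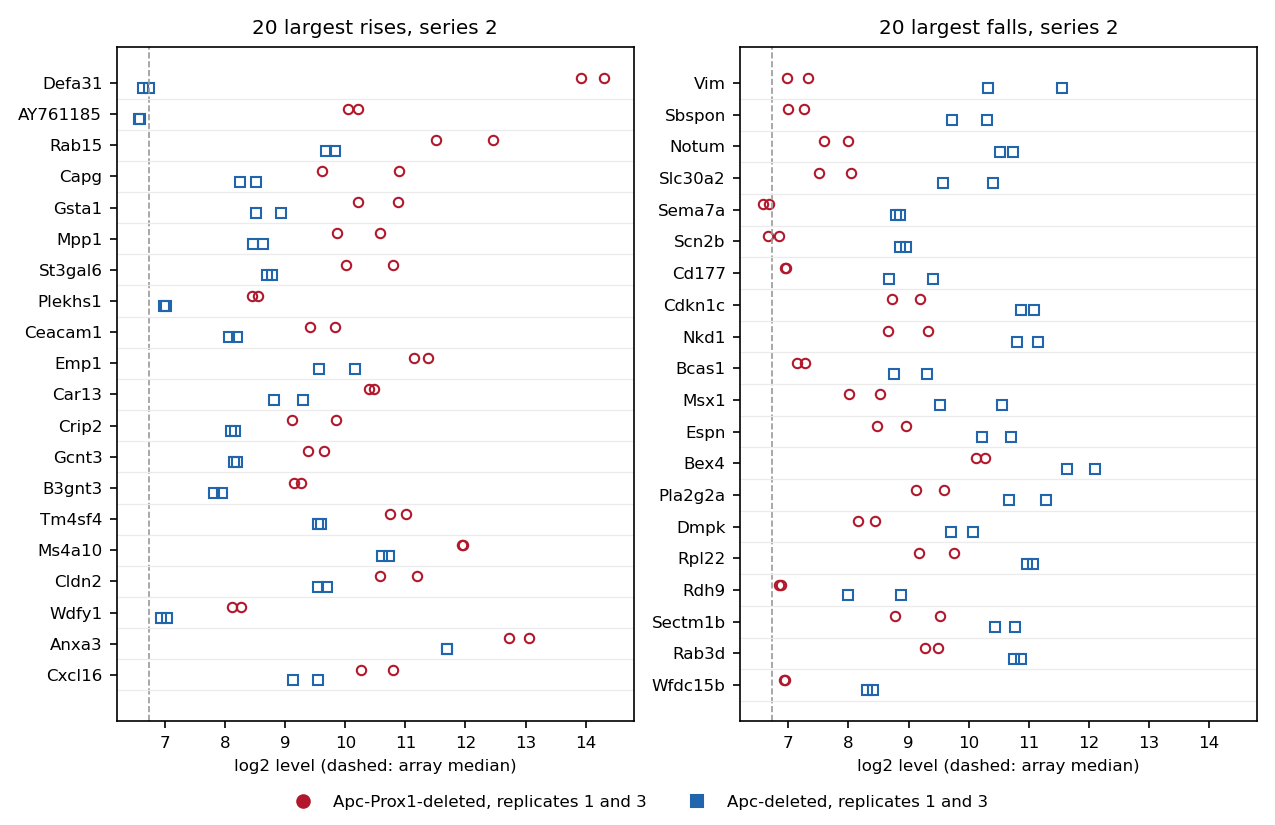
Log2 levels of the 20 genes with the largest rises (left) and the 20 with the largest falls (right) in Apc-Prox1-deleted (red circles) and Apc-deleted (blue squares) libraries, replicates 1 and 3. The 40 genes were chosen among those whose genotypes do not overlap, and the spread between replicates is widest for Capg, Rab15, Vim and Msx1.

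Of 18 Wnt target genes tested, 1 rose and 5 fell, with a median difference of -0.18. Over all genes tested 0.943% were higher and 1.62% lower, and the counts of this and the following lists stand beside those shares. A single call in a list is not read as a result about the list. Notum, a secreted enzyme that inactivates Wnt ligands by removing their lipid, had 7.59 and 8.0 in Apc-Prox1-deleted organoids, against 10.74 and 10.53 in Apc-deleted organoids (difference -2.84, SE 0.194, limma adjusted p = 1.44e-04), and its dimmer probes fell too. Nkd1, which binds Dishevelled inside the cell, had 8.65 and 9.32 in Apc-Prox1-deleted organoids, against 11.15 and 10.80 in Apc-deleted organoids (difference -1.99, SE 0.241, limma adjusted p = 0.00444). Apcdd1, a membrane inhibitor of Wnt, differed by -1.38 (limma adjusted p = 0.0251). Without Apc-Prox1-deleted replicate 1 in the fit of 10 libraries, its adjusted p was 0.3. Axin2, a feedback inhibitor often read as a measure of the pathway, had 11.82 and 11.72 in Apc-Prox1-deleted organoids, against 12.23 and 11.98 in Apc-deleted organoids (difference -0.34, limma adjusted p = 0.332). Of the other inhibitors on the list, Rnf43, Znrf3, Sfrp1, Sfrp5 and Wif1 did not pass. Nor did Dkk3 on its brightest probe (limma adjusted p = 0.0613), while a dimmer Dkk3 probe fell by 0.69 (limma adjusted p = 0.025). The other 2 that fell were the transcription factors Sox4 (-1.23) and Tcf4 (-1.10), an E-box factor and not a TCF or LEF protein. The member that rose was Cd44, a hyaluronan receptor, with 10.87 and 11.25 in Apc-Prox1-deleted organoids against 10.10 and 10.23 in Apc-deleted organoids (limma adjusted p = 0.0456, and 0.219 without Apc-Prox1-deleted replicate 3 in the fit of 10 libraries).

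Of 22 stem cell markers tested, 0 rose and 4 fell by limma, with a median of -0.26. Differences were below 0 for 16 of the 22, against 5996 of 12402 over all genes tested. The 4 were Scn2b, Tnfrsf19, Ascl2 and Rgmb. Ascl2, a transcription factor of crypt stem cells, had 8.30 and 8.71 in Apc-Prox1-deleted organoids, against 9.86 and 9.55 in Apc-deleted organoids (difference -1.20, SE 0.199, limma adjusted p = 0.0173). Lgr5, the R-spondin receptor that marks these cells, had 8.82 and 9.39 in Apc-Prox1-deleted organoids, against 9.80 and 9.66 in Apc-deleted organoids (difference -0.62, limma adjusted p = 0.198), and did not pass. Scn2b passed without each series 2 library in the fit of 10 libraries, while the other 3 did not. The adjusted p was 0.264 for Ascl2 without Apc-Prox1-deleted replicate 1, and without Apc-deleted replicate 1 it was 0.0984 for Tnfrsf19 and 0.118 for Rgmb. Both also missed the threshold without Apc-Prox1-deleted replicate 1 (0.095 for Tnfrsf19 and 0.118 for Rgmb).

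Of 22 enteroendocrine genes tested, 5 fell and 0 rose by limma. All 22 differences were below 0, against 5996 of 12402 over all genes tested, with a median of -0.17. Of the 22, 10 stayed within 0.5 of the array median in every library. A dim gene can be tested because it lies above the median in 1 genotype alone, so its sign is not independent of the filter. Ghrl, the ghrelin precursor, had 7.56 and 7.22 in Apc-Prox1-deleted organoids, against 8.47 and 8.37 in Apc-deleted organoids (difference -1.03, SE 0.15, limma adjusted p = 0.00954). Gcg, the proglucagon gene, had 7.40 and 7.04 in Apc-Prox1-deleted organoids, against 8.49 and 8.02 in Apc-deleted organoids (difference -1.03, limma adjusted p = 0.022). Isl1, a homeodomain factor of these cells, had 6.68 and 6.82 in Apc-Prox1-deleted organoids, against 7.32 and 7.31 in Apc-deleted organoids (difference -0.56, limma adjusted p = 0.0103). Scg2, a granin of secretory granules, differed by -0.66 and Cryba2 by -0.36. Neurog3, the factor that starts the lineage, had 7.63 and 8.90 in Apc-Prox1-deleted organoids, against 9.16 and 9.99 in Apc-deleted organoids, and did not pass (limma adjusted p = 0.133). Isl1 and Scg2 passed without each series 2 library in the fit of 10 libraries, and the highest adjusted p without 1 library was 0.15 for Ghrl (without Apc-Prox1-deleted replicate 3), 0.234 for Gcg (without Apc-deleted replicate 1) and 0.232 for Cryba2 (without Apc-deleted replicate 3).

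The other epithelial cell types showed few calls, where 2.56% of all genes tested passed. Of 15 goblet cell genes and 11 tuft cell genes tested, 0 passed by limma, with medians of -0.01 and 0. Muc2, the main gel-forming mucin, had 7.70 and 7.90 in Apc-Prox1-deleted organoids, against 7.32 and 7.26 in Apc-deleted organoids (limma adjusted p = 0.0711). Of 20 enterocyte genes 1 rose, Apob, the apolipoprotein of chylomicrons, with 7.46 and 7.73 in Apc-Prox1-deleted organoids against 6.87 and 6.94 in Apc-deleted organoids (difference 0.69, limma adjusted p = 0.0182). Of 4 Reg family lectins tested 1 rose, Reg1, with 7.80 and 8.52 in Apc-Prox1-deleted organoids against 7.09 and 6.93 in Apc-deleted organoids (difference 1.15, limma adjusted p = 0.0236). Reg1 did not pass without Apc-Prox1-deleted replicate 3 in the fit of 10 libraries (adjusted p = 0.0952).

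Among genes higher in Apc-Prox1-deleted organoids, those of glutathione metabolism and NRF2, a factor that answers oxidative and electrophilic stress, gave 6 rises and 0 falls by limma among 25 tested, with a median of 0.38. Gpx2, the glutathione peroxidase of gut epithelium, had 14.51 and 14.18 in Apc-Prox1-deleted organoids, against 13.18 and 13.26 in Apc-deleted organoids (difference 1.12, SE 0.117, limma adjusted p = 0.00223). Gsta1, a glutathione S-transferase, had 10.87 and 10.22 in Apc-Prox1-deleted organoids, against 8.93 and 8.52 in Apc-deleted organoids (difference 1.82, SE 0.243, limma adjusted p = 0.00699). Gsta2, Gsta4, Gsto1 and Aldh3a1 also rose, by 0.38 to 1.05. Probes of Gsta1 and Gsta2, close paralogs, may share transcripts. Gpx2, Gsta1 and Aldh3a1 passed without each series 2 library in the fit of 10 libraries, and without Apc-Prox1-deleted replicate 1 the adjusted p was 0.331 for Gsta2, 0.178 for Gsta4 and 0.0838 for Gsto1.

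Genes known as fetal-like or regenerative epithelium gave 5 rises and 0 falls by limma among 14 tested, with a median of 0.37. Anxa3, a membrane-binding annexin, had 13.05 and 12.72 in Apc-Prox1-deleted organoids, against 11.69 and 11.69 in Apc-deleted organoids (difference 1.20, SE 0.147, limma adjusted p = 0.00448). The others were Lgals1, a galectin (0.995), Il1rn, the interleukin-1 receptor antagonist (1.04), Msln, mesothelin (0.77), and Krt19, a keratin (0.61). Anxa3 passed without each series 2 library in the fit of 10 libraries, and Il1rn came closest among the other 4, at an adjusted p of 0.0563 without Apc-Prox1-deleted replicate 3. Of 27 genes of the actin cytoskeleton and annexins, 4 rose (Anxa3, Capg, Gsn and Cfl1) and 2 fell (Espn and Myl9), with a median of 0.17. Myl9, a myosin light chain, did not pass in the limma fit of 10 libraries (adjusted p = 0.15, and 0.596 without Apc-Prox1-deleted replicate 1), nor did Cfl1, which severs actin, without Apc-Prox1-deleted replicate 1 (0.129) or Apc-deleted replicate 1 (0.111). Of 12 keratins and other intermediate filament genes, 2 rose (Krt14 and Krt19) and 1 fell (Vim). Krt14, a basal keratin, had 7.97 and 7.57 in Apc-Prox1-deleted organoids, against 6.68 and 6.71 in Apc-deleted organoids (difference 1.08, SE 0.132, limma adjusted p = 0.00448).

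The p53 targets and apoptosis genes had the highest median, 0.50, among the 13 lists plotted by member, with 3 rises and 1 fall among 20 tested. Mdm2, the ubiquitin ligase that limits p53, had 11.17 and 10.82 in Apc-Prox1-deleted organoids, against 10.09 and 9.82 in Apc-deleted organoids (difference 1.04, SE 0.193, limma adjusted p = 0.0281). Ccng1, a cyclin of unusual kind induced by p53, differed by 1.05 and Fas, a death receptor, by 0.69, while Gadd45a, a stress-induced growth arrest gene, fell by 0.93. Fas passed without each series 2 library in the fit of 10 libraries, and the adjusted p without Apc-Prox1-deleted replicate 1 was 0.132 for Mdm2, 0.182 for Ccng1 and 0.0644 for Gadd45a.

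**Figure D4:**
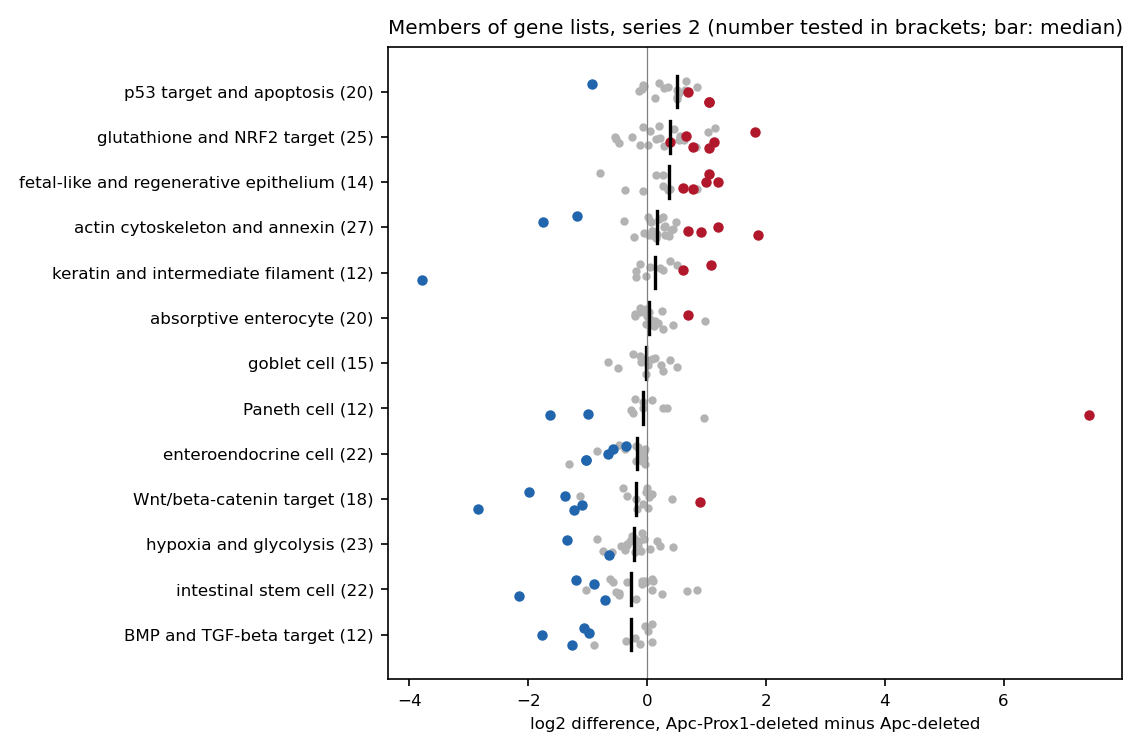
Log2 difference, Apc-Prox1-deleted minus Apc-deleted, of each tested member of 13 gene lists, with members past the threshold in red (higher) or blue (lower), the others in grey and the list median as a bar. Medians run from 0.50 for p53 targets to -0.28 for BMP and TGF-beta targets, and Defa31 at 7.43 stands alone among Paneth genes.

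Targets of BMP and TGF-beta gave 0 rises by limma and 4 falls among 12 tested, with a median of -0.28. Id3, an inhibitor of bHLH factors, had 7.30 and 7.43 in Apc-Prox1-deleted organoids, against 8.64 and 8.21 in Apc-deleted organoids (difference -1.06, SE 0.163, limma adjusted p = 0.0125). Id1 and Tgfbi, a secreted matrix protein, fell as well, and so did Msx1, a homeodomain factor, which had 8.01 and 8.53 in Apc-Prox1-deleted organoids against 10.55 and 9.53 in Apc-deleted organoids. Id3 passed without each series 2 library in the fit of 10 libraries, while the adjusted p without Apc-deleted replicate 1 was 0.226 for Id1 and 0.181 for Tgfbi. Of 23 hypoxia and glycolysis genes 0 rose by limma and 2 fell, Aldoc, an aldolase (-1.35), and Vegfa, the vascular growth factor (-0.64). Of the 23, 19 were below 0, against 5996 of 12402 over all genes tested. Without Apc-deleted replicate 1 in the fit of 10 libraries, the adjusted p was 0.0804 for Aldoc and 0.146 for Vegfa. Of 11 Notch genes 1 fell, Hes6, a bHLH factor, with 10.53 and 10.94 in Apc-Prox1-deleted organoids against 12.34 and 11.92 in Apc-deleted organoids (limma adjusted p = 0.00904, and 0.0829 without Apc-Prox1-deleted replicate 1 in the fit of 10 libraries).

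The remaining lists held few calls, to be set beside the 2.56% of all genes tested that passed. Of 26 interferon and MHC genes 2 fell, Ifitm1 and Ifitm2, neither of which passed without Apc-Prox1-deleted replicate 1 in the limma fit of 10 libraries (adjusted p = 0.16 and 0.216). Among tight junction genes 2 of 16 rose, Cldn2, which forms a cation pore (1.26), and F11r, a junctional adhesion molecule (1.09, but with an adjusted p of 0.0967 without Apc-Prox1-deleted replicate 1 in that fit). By limma 0 members passed among 27 oxidative phosphorylation, 16 cholesterol synthesis, 13 YAP target, 23 stress response, 17 intestinal identity and 11 gastric surface genes. Of 7 endothelial and lymphatic markers 1 rose, Pdpn, podoplanin, with 8.02 and 7.53 in Apc-Prox1-deleted organoids against 6.75 and 6.68 in Apc-deleted organoids. The other 6 did not pass. Of the 7, 4 stayed near the floor in every library, among them Kdr, Lyve1 and Tek, between 6.67 and 6.92. Members besides Pdpn thus also lay above the floor. The mean level over the 7 was 7.30 to 7.31 in Apc-Prox1-deleted organoids and 7.12 to 7.17 in Apc-deleted organoids. By limma 0 of 6 immune markers passed, and 1 of 15 NF-kB and cytokine genes, Cxcl16. Of 3 matrix and feeder genes 1 rose, Col4a1, with 7.56 and 7.50 in Apc-Prox1-deleted organoids against 6.88 and 6.86 in Apc-deleted organoids. Over the chromosomes, the share of tested genes that passed was highest on chromosome 9 (31 of 673, 4.61%) and on chromosome 1, which holds Prox1 (24 of 667, 3.6%), against 2.56% overall.

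The genotype difference of series 2 was set against that of series 1, of the same 2 genotypes, by an interaction term in a limma fit of 10 libraries, quantile normalized over the deposited entries. It differed for 163 of 29601 probes (0.551%) and 89 of 14759 genes (0.603%). In that fit Defa31 differed between genotypes by 7.81 in series 2 and by -0.08 in series 1, and AY761185 by 4.03 in series 2 and -0.02 in series 1. All 10 probes on in Apc-Prox1-deleted organoids alone were at the floor in series 1, between 6.57 and 6.83 in its 2 Apc-Prox1-deleted libraries and between 6.62 and 6.87 in its 4 Apc-deleted libraries. The defensin difference was thus measured in series 2 and not detected in the 6 series 1 libraries that stand under 1 title each. The array left out because it carries titles of both series, and which also stands as Apc-Prox1-deleted series 1 replicate 3, had Defa31 at 14.86 and 14.92 under that title.

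For 13 genes the 2 series had opposite signs with both past the threshold. Sema7a differed by -2.63 in series 2 and by 2.26 in series 1 (interaction -4.89, SE 0.171). Cyp11a1, the enzyme that starts steroid synthesis, is the protein-coding gene next to Sema7a on chromosome 9 in the RefSeq annotation, with 0 protein-coding genes between them. Cyp11a1 also differed below 0 in series 2 (-0.88) and above 0 in series 1 (1.09). Reg1 differed by 1.38 in series 2 and by -2.74 in series 1, Prelp, a matrix proteoglycan, by 1.27 in series 2 and -1.59 in series 1, and Xpnpep2, a membrane aminopeptidase, by -1.36 in series 2 and 1.30 in series 1. The other 8 were Cptp, Necap2, Clec2e, Shisa2, Cdk5rap1, B3galt6, Abhd10 and Tdrd5. Xist, the RNA of X inactivation, lay at the floor in series 2 on the probe with the largest series difference, at 6.66 to 6.68 in Apc-Prox1-deleted organoids and 6.64 to 6.66 in Apc-deleted organoids on the quantile-normalized scale. In series 1 the same probe averaged 6.68 in the Apc-Prox1-deleted libraries and 9.84 in the Apc-deleted libraries, a genotype difference of -3.16, so that sex-linked expression moved with genotype in series 1 and its part in the series difference was not tested. The interaction count fell to 77 without Apc-Prox1-deleted replicate 1 of series 1, to 97 without replicate 2 of the same group and to 89 without Apc-deleted replicate 1 of series 2.

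**Figure D5:**
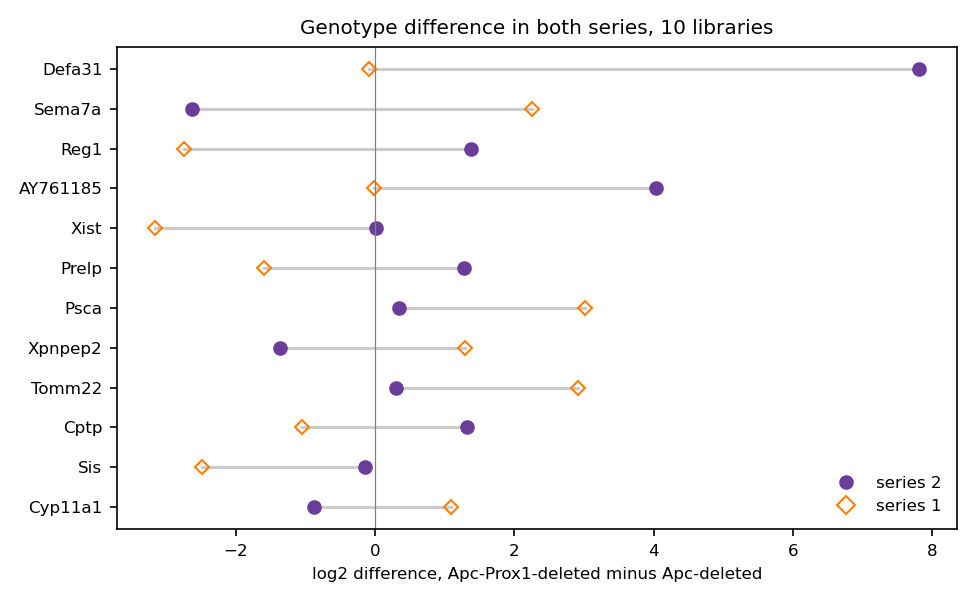
Log2 genotype difference, Apc-Prox1-deleted minus Apc-deleted, in series 2 (filled circles) and series 1 (open diamonds) for the 12 genes with the largest tested difference between the series. Defa31 and AY761185 stand at 7.81 and 4.03 in series 2 and near 0 in series 1, and Sema7a, Reg1, Prelp, Xpnpep2, Cptp and Cyp11a1 lie on opposite sides of 0.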

How the data were processed

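RNA of mouse intestinal organoids was measured on Illumina bead arrays. The authors' deposited table holds ratios of 45281 probes, and the values show each to be a log2 level divided by the probe's median over its series; the log base was taken from their range. The authors' background correction and normalization were not stated in the labels or headers. Log2 levels were recovered by searching, in steps of 0.01 between 6.0 and 16.0, the divisor that turns a probe's ratios into whole steps, taking the smallest where several fitted. Levels were settled for 45255 probes, of which 6702 had 1 possible divisor in both series; a multiple of a divisor would give larger differences. Another table, with 28 columns of values whose names match no label, was not used.

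Probes above the array median on at least 2 of the 4 libraries were tested with limma 3.58.1 in R 4.3.3 (lmFit, eBayes with a variance trend), with Benjamini-Hochberg adjustment over 22897 probes, threshold 0.05 and 2 residual degrees of freedom. On simulated data 63% of probes changed by 1 log2 and 89% of those changed by 2 were recovered, with 3 false calls. Of 45255 probes, 34885 had 1 symbol and 18 several; genes were read through their brightest tested probe. Named genes were Prox1, Apc, the on/off probes, up to 6 passing members of each list and the list members the text describes. The 20 largest rises and 20 largest falls, taken among passing genes whose genotypes did not overlap, and 12 genes differing between series were also named. The members and lists were chosen with earlier results of these data known. RefSeq promoters were found for Defa31, AY761185, Defa20, Defa21 and Defa23. Entries were taken as copies of 1 array where no probe differed by over 0.0132 log2 after quantile normalization over the deposited entries. The next pair differed by up to 1.1671 on that scale. The recovered levels of copies, each on its own series' scale, do differ. Defa31 stood at 14.12 and 14.19 as Apc-Prox1-deleted series 2 replicate 2, against 14.86 and 14.92 as series 1 replicate 3. Alternatives tried are other normalizations, filters, variance models, sample sets, a replicate block and leaving out each library.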

Additional observations from a re-analysis of the deposited data

Results flagged for a closer look

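The genotype difference of series 2, Apc-Prox1-deleted minus Apc-deleted, differed from that of series 1 for these genes by the interaction term of the limma fit of 10 libraries, with adjusted p below 0.05; values are series 2 minus series 1 on the log2 scale. It was higher in series 2 for Defa31 (7.89), Reg1 (4.12), AY761185 (4.05), Prelp (2.86), Cptp (2.37), Sis (2.33), Pdpn (1.07), Krt14 (0.97) and Plekhs1 (0.93). It was lower in series 2 for Sema7a (-4.89), Psca (-2.68), Xpnpep2 (-2.66), Tomm22 (-2.62), Cyp11a1 (-1.97), Cd177 (-1.74), Msln (-1.32) and Scn2b (-1.03).

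These genes do not share 1 pattern. Sis, the brush border enzyme sucrase-isomaltase, differed by -0.15 in series 2 and -2.48 in series 1. Psca, a surface protein of gastric epithelium, differed by 0.34 in series 2 and 3.01 in series 1. Tomm22, of the mitochondrial import channel, differed by 0.30 in series 2 and 2.92 in series 1. For Sis, Psca and Tomm22 the larger difference was thus in series 1, whereas for Defa31 and AY761185 it was in series 2. These values leave out the array titled both Apc-Prox1-deleted series 1 replicate 3 and series 2 replicate 2, on which both genes were well above the floor.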

How the results depend on the processing

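The number of probes passing (482) was 599 with quantile normalization over all entries, 698 with cyclic loess, 478 with array weights, 477 with probes above the median on all 4 libraries and 717 with a median plus 0.5 filter. It was 156 on the deposited ratios, 47 with no variance trend, 832 with a robust prior, 1070 with 4 groups over 10 libraries, 911 with all 6 series 2 entries as labelled and 218 with no filter. With 1 library left out it was 0 by limma in every case (1700 to 2656 probes at unadjusted p below 0.05). With 10 libraries and 1 series 2 library left out, an alternative chosen after seeing the data, it was 421 to 1107: 778 without Apc-deleted replicate 3 and 1107 without Apc-Prox1-deleted replicate 3. The replicate block gave 0 (2701 at unadjusted p below 0.05), with 1 residual degree of freedom. The deviations of same-numbered libraries correlated at 0.105 over 2 pairs, so the numbers are not taken as a pairing, and the crossed order was not tried.

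The brighter Prox1 probe passed with quantile normalization (-1.39, adjusted p = 0.0457), cyclic loess (-1.36, 0.033), 10 libraries (-1.39, 0.0287) and the median plus 0.5 filter (-1.35, 0.0228), and over all alternatives its adjusted p ran from 0.015 to 0.638. Without 1 library its difference ran from -0.92 to -1.77, and in the fit of 10 libraries from -0.95 to -1.83, passing at -1.82 without Apc-deleted replicate 3 and -1.83 without Apc-Prox1-deleted replicate 3. The dimmer Prox1 probe did not pass with no filter (adjusted p = 0.0548), on the ratios (0.105), with no variance trend (0.148) or with the replicate block (0.41). Probes on in 1 genotype alone numbered 11, with 10 on in Apc-Prox1-deleted and 1 on in Apc-deleted organoids. With the off level 0.25 higher they numbered 23, with 10 and 13, so the larger group changed. The series difference (163 probes) was 89 with no variance trend and 77 to 186 without 1 library. List members passing numbered 57, against 27 with no filter. Of the 57, 27 were higher and 30 lower, whereas 40 were higher and 34 lower in the fit of 10 libraries. No named gene or probe that passed reversed its sign under the alternatives run. Of 89 named genes or probes passing, 4 were lost with 10 libraries, 2 with a robust prior, 39 with no filter, 58 on the ratios and 76 with no variance trend. The cause of these changes was not tested.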

Other observations

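The array deposited both as Apc-Prox1-deleted series 2 replicate 2 and as Apc-Prox1-deleted series 1 replicate 3 entered no test, apart from the alternative that used all 6 series 2 entries as labelled. On it the 10 probes on in Apc-Prox1-deleted organoids alone lay between 7.78 and 14.19 as the series 2 entry, with Defa31 at 14.12 and 14.19 and AY761185 at 10.38. As the series 1 entry, on that series' own scale, Defa31 stood at 14.86 and 14.92 and AY761185 at 11.29. Sema7a lay at 6.66, Cd177 at 6.77, Scn2b at 6.70 and Vim at 6.83 on the series 2 entry. On the same entry the brighter Prox1 probe lay at 8.69 and the brightest Notum probe at 8.11.

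The array deposited both as Apc-Prox1-deleted series 1 replicate 4 and as Apc-deleted series 2 replicate 2 carries 2 genotype labels, and likewise entered a test in that alternative alone. On the series 2 entry the same 10 probes lay between 6.55 and 6.76, with Defa31 at 6.57 and 6.59 and AY761185 at 6.61. Sema7a lay at 8.90, Cd177 at 8.32, Scn2b at 8.26 and Vim at 8.64 on it. Its brightest Notum probe lay at 9.59, against 7.59 and 8.0 in the tested Apc-Prox1-deleted and 10.74 and 10.53 in the tested Apc-deleted libraries. The brighter Prox1 probe lay at 9.05 on it, against 8.20 and 9.03 in the tested Apc-Prox1-deleted and 10.39 and 9.54 in the tested Apc-deleted libraries. The labels do not settle the genotype of this array, and none was taken from these values.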
